A study of Mus musculus with 2 samples.

Results

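Genes of the heat shock chaperone machinery, 9 in number and chosen as a list of names, were followed through cultures of mouse bone marrow cells that were exposed to heme or left unexposed. The list held Hspa1a, Hspa1b, Dnajb1, Hsph1, Bag3, Hspa8, Hsp90aa1, Hspd1 and Hspe1, and all 9 of 9 were found among the 26124 genes of both count matrices. Chaperones hold unfolded or newly made proteins until they reach their folded shape. When damaged protein builds up, the transcription factor HSF1 is released from chaperones, binds heat shock elements in DNA and raises the transcription of the inducible members, such as Hspa1a and Hspa1b. Heme is a pro-oxidant iron porphyrin that cells meet when red cells break open, and myeloid cells degrade it with heme oxygenase, the product of Hmox1.

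Lineage-depleted bone marrow of C57BL/6 mice aged 8 to 10 weeks was grown with the growth factor GM-CSF at 20 ng/ml, with 40 ng/ml in the medium added on day 2. On day 3 the control group received albumin and the heme group received heme-albumin at 300 µM, so the control cultures carried the protein carrier without heme. Cells were detached by cooling on a surface that releases them at low temperature, marked with hashtag antibodies by day, pooled per treatment and measured by 10x Genomics 3′ single-cell sequencing. Each treatment was 1 library with cells of days 0, 3, 4, 5 and 7, which makes 10 cultures. The protocol places the harvests on days 4, 5 and 7, whereas the design text counts exposures of 0, 24, 72 and 96 h, which differ from the hashtag days for day 5, so the hashtag days are used here. Days 0 and 3 of the heme library were taken before any exposure and serve as its background.

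With 1 library per group there was no replicate and no test was possible. Levels are given as unique molecular identifiers, or UMIs, which are single counted transcripts, per 1000000 UMIs of the culture (CPM). Runs of 5 levels are in the order of days 0, 3, 4, 5 and 7, and runs of 4 levels or ratios in the order of days 3, 4, 5 and 7. Ratios are heme to control, with exact 95% intervals that cover counting error only and say nothing of the spread between cultures. Where the ratio of day 3 is divided out, the interval is approximate and symmetric on the log2 scale. A gene was called when it differed by 2-fold or more with at least 20 UMIs in both cultures together. In sums over a culture, fewer cells of a type and less RNA per cell cannot be told apart.

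The libraries held 9684 control and 9941 heme cells after filtering, with 6189203 to 34647365 UMIs per culture, and they stood apart before any exposure. Hmox1, the check of the exposure, was at 1.94, 37.3, 59.8, 63.4 and 86.3 CPM in the control library and at 133, 161, 1399, 2321 and 5201 CPM in the heme library. Hmox1 was thus already higher in the heme library on days 0 and 3. Cells of all days were pooled in that library, and the part of RNA from exposed cells in these values was not tested. The same limit holds for the day 3 ratios that are divided out below. The upper limit of 5000 genes per cell removed between 16.4 and 33.9% of the singlets of each heme culture, and between 1.92 and 8.34% of each control culture. The median ratio of heme to control over all genes was 1.35, 1.24, 1.22, 1.19 and 1.22, so a ratio near 1 lies below that of the typical gene. This median depended on transcript length on every day. On day 3 the log2 ratio was -0.14 at the median of the shortest and 0.58 at that of the longest of 4 equal bins of transcript length. On day 7 these medians were -0.11 and 0.52. A total of 112 barcodes occurred in both libraries, of which 33 were kept in both.

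The sequences upstream of the start sites were searched for a letter pattern of heat shock elements, and a match shows the letters only. The sequences were RefSeq promoter windows on GRCm38.p6, of which the 250 bases before the start were searched. The search was for the inverted pair GAANNTTC or TTCNNGAA, each of which reads the same on both strands. At least 1 match was found in 12.8% of all 32851 promoter windows. Windows were on hand for 7 of the 9 genes, all but Hspa8 and Hsp90aa1. The lines below show the 250 bases before Hspa1a (chr17:34972157-34972406, minus strand), Hspa1b (chr17:34959239-34959488, minus strand) and Bag3 (chr7:128523333-128523582, plus strand). They also show 30 bases around the matches of Hsph1 (chr5:149636351-149636380, minus strand) and around those that windows of Hspd1 and Hspe1 share (chr1:55088053-55088082, plus strand). Capitals mark the matches.
Hspa1a: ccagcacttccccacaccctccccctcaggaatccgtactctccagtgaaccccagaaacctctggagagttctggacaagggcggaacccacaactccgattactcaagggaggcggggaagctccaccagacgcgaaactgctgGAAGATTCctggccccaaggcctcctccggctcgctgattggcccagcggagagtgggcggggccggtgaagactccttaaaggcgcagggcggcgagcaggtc
Hspa1b: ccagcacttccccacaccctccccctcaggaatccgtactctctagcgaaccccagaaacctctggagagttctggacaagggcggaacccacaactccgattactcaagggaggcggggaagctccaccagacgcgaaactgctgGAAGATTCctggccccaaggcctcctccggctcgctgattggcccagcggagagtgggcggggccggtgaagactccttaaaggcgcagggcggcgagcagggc
Bag3: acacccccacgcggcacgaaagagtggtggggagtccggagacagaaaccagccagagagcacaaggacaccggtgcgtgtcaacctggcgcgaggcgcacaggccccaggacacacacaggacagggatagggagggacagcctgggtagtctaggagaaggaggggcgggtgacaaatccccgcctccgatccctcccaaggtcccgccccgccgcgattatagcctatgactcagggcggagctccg
Hsph1: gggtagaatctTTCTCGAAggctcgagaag
Hspd1 and Hspe1: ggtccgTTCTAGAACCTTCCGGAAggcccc

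Hspa1a and Hspa1b each held 1 match, 104 bases before the start, and their windows differed at 3 of 250 bases. Hsph1 held 1 match, 33 bases before its upstream start. The oppositely transcribed genes Hspd1 and Hspe1 overlap at their 5′ ends in the annotation. The stretch shown lies before the start of Hspe1 and before 1 of the 2 RefSeq starts of Hspd1, inside the annotated Hspd1 gene, and the window of the other Hspd1 start held 0 matches. It held 3 overlapping matches, which make a run of at least 3 alternating units. Such a run was found in 0.466% of all windows. The windows of Bag3 and Dnajb1 held no match, which says only that these letters are not in those windows. The NRF2-type element TGACNNNGC, searched on both strands, had 2 matches before Hsph1 and 1 before Dnajb1, beside 10.2% of all windows with at least 1.

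Few members passed 2-fold between the libraries before day 7. On day 0, 0 of 7 members with enough UMIs were higher by 2-fold, beside 20.7% of all genes, and 0 were lower, beside 1.75%. On day 3, also before exposure, 0 of 8 members with enough UMIs were higher by 2-fold, beside 7.95% of all genes, and 0 were lower, beside 0.539%. On day 4, 0 of 8 were higher, beside 9.64% of all genes, and 1 of 8, Hspe1, was lower, beside 2.98%. On day 5, 0 of 7 were higher, beside 9.27%, and 0 were lower, beside 3.75%. On day 7, 3 of 9 were higher, beside 14.9% of all genes, and 0 were lower, beside 7.67%. The 3 were Hspa1b, Hsph1 and Bag3. The median log2 ratio of the members was -0.01, -0.10, -0.12 and 0.48, beside 0.31, 0.28, 0.25 and 0.28 over all genes. The median of the members was thus below that of all genes on days 3, 4 and 5, and above it on day 7.

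Within each library, the members were also set against day 3. In the control library, 1 of 8 was higher on day 4 (Hspa1b, 12 and 23 UMIs), beside 4.31% of all genes, and 0 were lower, beside 1.74%. On day 5 of that library, 0 of 8 were higher, beside 9.85%, and 0 were lower, beside 4.07%. On its day 7, 0 of 8 were higher, beside 15.9%, and 2 were lower, Hsp90aa1 and Hspd1, beside 8.85%. In the heme library, 0 of 8 were higher on day 4, beside 5%, and 0 were lower, beside 3.32%. On day 5 of that library, 0 of 8 were higher, beside 9.22%, and 0 were lower, beside 6.88%. On its day 7, 3 of 9 were higher, Hspa1a, Hspa1b and Bag3, beside 12.5%, and 0 were lower, beside 9.56%. From day 0 to day 3, Hsph1, Hsp90aa1, Hspd1 and Hspe1 fell in both libraries, which is 4 of 7 in the control library, beside 20.7% of all genes lower, and 4 of 8 in the heme library, beside 26.8%. No member was higher in that step, beside 15.1 and 11.6%.

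**Figure D1:**
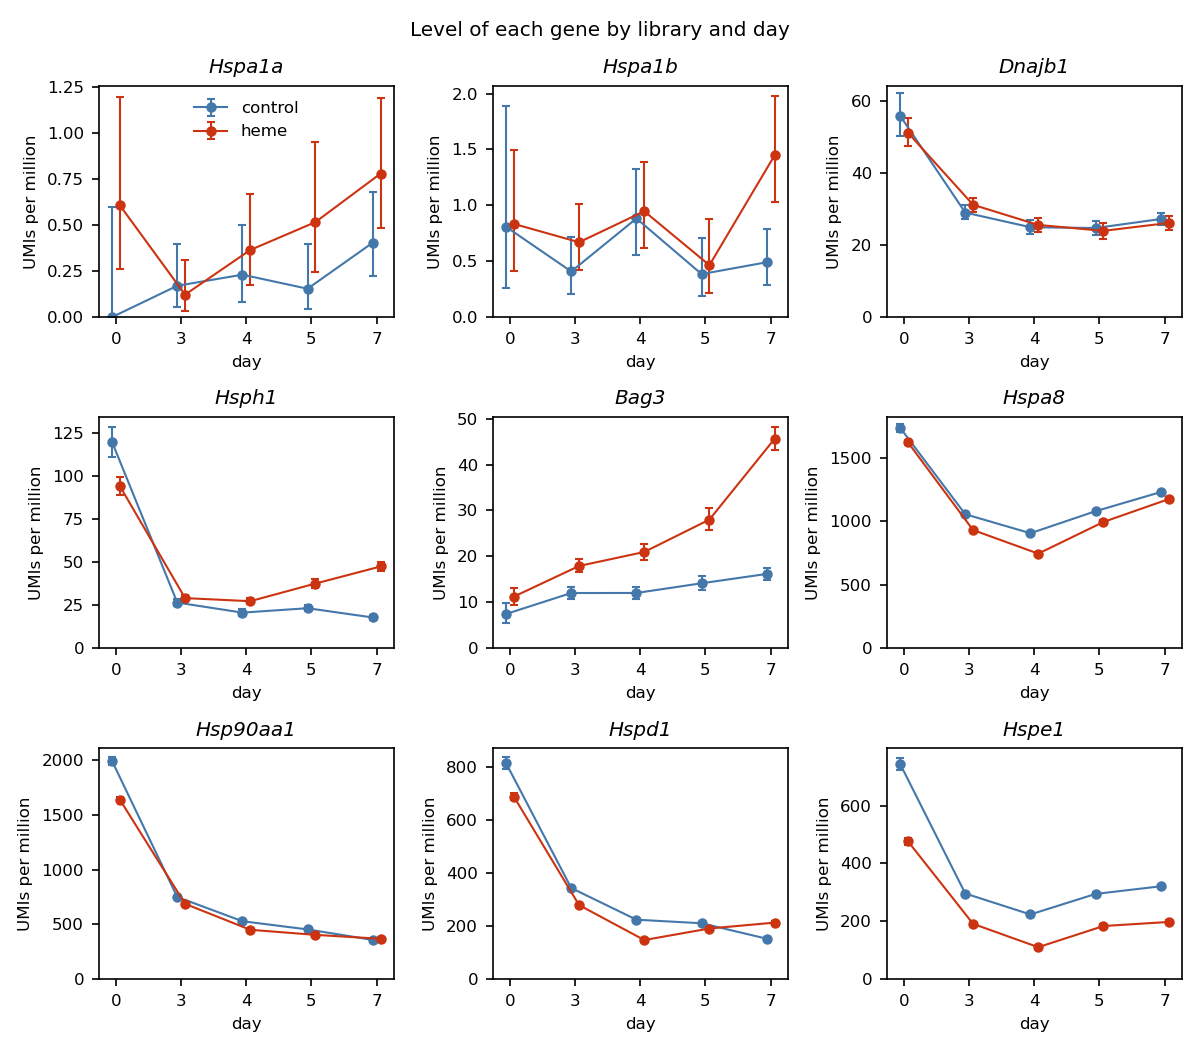
Level of the 9 genes in CPM (y axis, from 0) by day of culture (x axis), with the control library in blue and the heme library in red. Bars are exact 95% intervals of counting error. Hsph1 and Bag3 reach 47.4 and 45.6 in the heme library on day 7, against 17.8 and 16.2 in the control library.

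Hspa1a and Hspa1b encode the stress-inducible cytosolic HSP70, and they were close to undetected throughout. Hspa1a had 0, 5, 6, 4 and 14 UMIs in the control library and 8, 4, 10, 10 and 21 in the heme library. None of its levels exceeded 0.779 CPM, and its 0 in the control library on day 0 allows up to 0.485 CPM. Hspa1b had 5, 12, 23, 10 and 17 UMIs in the control library and 11, 22, 26, 9 and 39 in the heme library. The largest level of Hspa1b was 1.45 CPM (1.03 to 1.98), in the heme library on day 7. That day the ratio was 2.95 (1.63 to 5.56) for Hspa1b and 1.93 (0.935 to 4.10) for Hspa1a. Summed over both genes, 60 UMIs on day 7 of the heme library stood against 31 of the control library, or 2.23 CPM (1.70 to 2.87) against 0.895 (0.608 to 1.27). On days 0, 3, 4 and 5 the summed intervals of the libraries overlapped. The call for Hspa1b was lost when the day 3 ratio was divided out, which left a log2 ratio of 0.85, and with cells thinned to 3000 UMIs, which left 0.91. No 91-base stretch of the last 500 bases of either transcript was shared with another gene, so reads of this length from these ends could be told apart.

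Dnajb1, the HSP40 partner that hands clients to HSP70 and itself a classical HSF1 target, had an interval that included a ratio of 1 on every day. Its control levels were 55.9, 29.0, 24.9, 24.7 and 27.2 CPM. Its heme levels were 51.2, 31.2, 25.6, 23.9 and 26.1 CPM. The level was highest on day 0 in both libraries. The ratio was 1.07 (0.980 to 1.18), 1.03 (0.920 to 1.14), 0.968 (0.858 to 1.09) and 0.960 (0.869 to 1.06), while the median gene was higher in the heme library.

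Hsph1 encodes HSP110, which pulls ADP from HSP70 and so restarts its cycle. Control cultures held it at 120, 26.5, 20.6, 23.2 and 17.8 CPM. Heme cultures held it at 94.1, 29.0, 27.3, 37.5 and 47.4 CPM. The libraries lay closest on day 3 and farther apart on each later day, and the day 0 level was the highest of each library. From day 3 on, the ratio was 1.10 (0.998 to 1.21), 1.32 (1.18 to 1.48), 1.62 (1.45 to 1.81) and 2.67 (2.42 to 2.94). With the ratio of day 3 divided out, that of day 7 was 2.43 (2.12 to 2.78). Against its own day 3, the day 7 level had a log2 ratio of 0.71 (0.59 to 0.83) in the heme library and -0.57 (-0.73 to -0.42) in the control library, each under 2-fold. Set against the 500 genes nearest in transcript length, the log2 ratio was -0.06 on day 4, 0.29 on day 5 and 0.99 on day 7, in place of 0.40, 0.69 and 1.42.

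Bag3 encodes a cochaperone that binds HSP70 and, with HSPB8, sends its clients to autophagy. Its levels were 7.43, 12.0, 12.0, 14.1 and 16.2 CPM in the control library and 11.2, 17.9, 20.9, 28.0 and 45.6 CPM in the heme library. Each heme level was above that of the sampled day before and above the control level of its day, including the days before exposure. Its ratio was 1.49 (1.30 to 1.71), 1.74 (1.52 to 2.01), 1.98 (1.73 to 2.27) and 2.82 (2.55 to 3.12). With the ratio of day 3 divided out, that of day 7 was 1.89 (1.60 to 2.23), which is under 2-fold. Against day 3, the level on day 7 was 2.55-fold (2.31 to 2.82) in the heme library and 1.35-fold (1.18 to 1.54) in the control library.

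Hspa8, the constitutive HSC70 that folds new proteins in every cell, differed little between the libraries. Its levels were 1735, 1054, 905, 1078 and 1229 CPM in the control library and 1621, 930, 744, 993 and 1173 CPM in the heme library. Both libraries had their lowest level on day 4. Its ratio was 0.882, 0.822, 0.921 and 0.955, each with an interval below 1, so the difference was at its widest on day 4 and was present before heme. Hsp90aa1, the inducible cytosolic HSP90, was lower on each later day in both libraries. Levels of 1993, 751, 529, 454 and 358 CPM in the control library stood beside 1640, 688, 451, 404 and 368 CPM in the heme library. The ratio was 0.916 (0.899 to 0.934) on day 3 and 1.03 (1.00 to 1.06) on day 7, and the latter was below 1 under 6 alternatives, with a log2 ratio down to -0.28. Of the last 500 bases, 60.4% of the 91-base stretches of Hspa8 and 18.6% of those of Hsp90aa1 also occur in transcripts of other annotated genes. So do 18.4% of those of Hspd1 and 35.9% of those of Hspe1. Reads from such stretches could not be told apart by sequence, and the effect on the counts of these 4 genes was not measured.

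Hspd1 and Hspe1 encode HSP60 and HSP10, the barrel and lid of the mitochondrial chaperonin, and lie head to head on chromosome 1. Hspd1 had levels of 813, 343, 224, 210 and 152 CPM in the control library and 687, 279, 147, 191 and 213 CPM in the heme library. It was lower on each later day in the control library, whereas in the heme library it was lowest on day 4 and higher on days 5 and 7. The ratio of Hspd1 was 0.813 (0.790 to 0.836), 0.657 (0.631 to 0.684), 0.906 (0.869 to 0.945) and 1.40 (1.35 to 1.45). Over whole cultures, every alternative tried left the ratio of Hspd1 below 1 on day 4 and above 1 on day 7. Within single clusters on day 4, given below, it was mostly above 1, as it was on day 3, before exposure. Over whole cultures the day of the turn depended on the setting. On day 5 the log2 ratio was -0.14, and it was 0.16 with the day 3 ratio divided out, 0.12 without the upper limit of genes or without any filter, and 0.0083 with each cell weighted equally. Hspe1 was at 745, 296, 224, 295 and 321 CPM in the control library and at 477, 191, 110, 184 and 198 CPM in the heme library. The ratio of Hspe1 was 0.645 (0.625 to 0.667), 0.493 (0.472 to 0.516), 0.623 (0.599 to 0.648) and 0.616 (0.596 to 0.636). Hspe1 was lower in the heme library on every day, day 0 included, with the lowest ratio on day 4.

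The chaperonin genes differ in length, and the median ratio over all genes differed with length. The longest annotated transcript has 964 bases for Hspe1 and 2423 for Hspd1, and the 500 genes nearest in length had a median log2 ratio of -0.31 and 0.15 on day 3, respectively. Relative to the genes of like length on the same day, the log2 ratio of Hspe1 was -0.32, -0.66, -0.37 and -0.39. That of Hspd1 was -0.45, -0.73, -0.27 and 0.37. The part of length in either result was not tested. The call of Hspe1 on day 4 was lost relative to genes of like length (log2 ratio -0.66), without the upper limit of genes (-0.57), with each cell weighted equally (-0.93) and with the day 3 ratio divided out (-0.39).

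**Figure D2:**
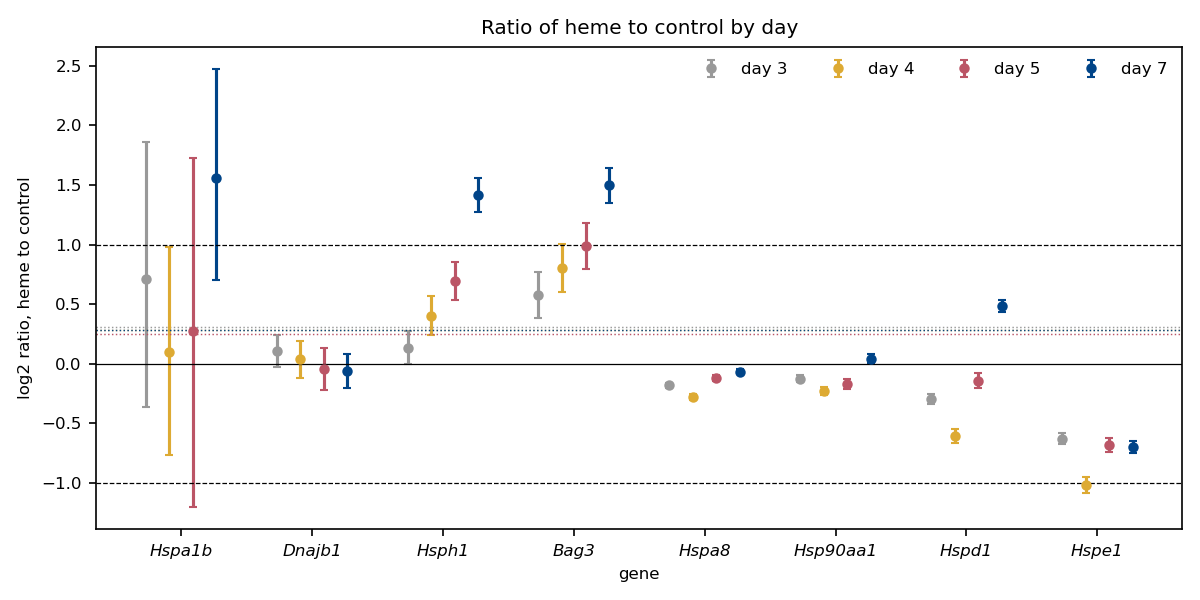
Log2 ratio of heme to control (y axis) for 8 of the 9 genes (x axis) on days 3, 4, 5 and 7, with exact 95% intervals of counting error. Dashed lines mark 2-fold and dotted lines the median of all genes on each day. Hspa1a, with 21 UMIs at most in a culture, is left out. Hsph1 and Bag3 lie farther up on each later day, and Hspd1 lies below 0 on day 4 and above it on day 7.

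The makeup of the cultures differed between the libraries and between days, and its part in the ratios of Hsph1 and Bag3 was not tested. Cells of both libraries were clustered together on genes outside the members and the lists, and clusters were given a name ending in -like only from marker genes. Neutrophil-like cells made up 34.6, 59.0, 47.4 and 3.79% of control cells and 53.9, 79.7, 63.8 and 27.6% of heme cells. Macrophage-like cells were 12.5, 19.0 and 65.0% of the heme cells on days 4, 5 and 7 and fewer than 30 cells in every control culture, at the clustering used here. These macrophage-like cells lay in 3 clusters (9, 12 and 24) of which at least 98.1% of the cells came from the heme library. The name depended on the clustering. At a Leiden resolution of 0.5, 806 control cells of day 7 (29.7%) were also named macrophage-like, and with 30 components 696 (25.6%) were, while the heme share of day 4 was 6.97 and 9.31%. Those control cells lay in clusters of their own, led by Arg1 and Fn1, of which 0.858 and 0.394% were heme cells, so at none of the 3 settings did a macrophage-like cluster hold both libraries in number. At resolution 0.5, macrophage-like cells of day 7 had Hsph1 at 20.6 CPM (17.9 to 23.4) in the control library and 53.4 CPM (50.2 to 56.8) in the heme library. Bag3 was at 17.8 CPM (15.4 to 20.5) and 54.5 CPM (51.3 to 57.9) in these cells. With 30 components the levels were 19.2 and 53.8 CPM for Hsph1 and 21.1 and 54.3 CPM for Bag3.

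Hsph1 was low in neutrophil-like cells and higher in the other classes. Neutrophil-like cells had 3.52, 2.54, 3.68 and 4.96 CPM in the control library, the last from 2 UMIs, and 8.40, 13.3, 13.8 and 16.8 CPM in the heme library. Different clusters held most of these cells in each library, clusters 7, 14, 18 and 19 in the control library and clusters 1, 2, 4 and 11 in the heme library. In macrophage-like cells of the heme library Hsph1 was at 61.1 (54.6 to 68.2), 58.0 (52.3 to 64.1) and 53.4 (50.3 to 56.6) CPM on days 4, 5 and 7. This level was not higher on later days, and the share of these cells was. Unnamed control cells had Hsph1 at 34.8, 35.4, 31.0 and 19.8 CPM. The part of the shares or of the levels within classes in the ratio of Hsph1 was not tested.

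Bag3 was ordered differently over the classes. In the control library on day 4 it was lowest in progenitor-like cells (5.70 CPM) and highest in dendritic cell-like cells (31.3 CPM), whereas Hsph1 was at 31.5 and 20.9 CPM in these classes. Neutrophil-like cells of the control library had 4.90, 6.40, 7.50 and 7.44 CPM, and those of the heme library 8.46, 12.3, 15.2 and 14.7 CPM. In macrophage-like cells of the heme library it was at 47.8 (42.1 to 54.1), 48.3 (43.1 to 53.9) and 54.0 (50.9 to 57.3) CPM on days 4, 5 and 7. Cluster 12, led by Marco and Igf1, held 774 of these cells on day 7 with Bag3 at 59.8 CPM (55.6 to 64.1). In the control library the unnamed cluster 15, led by Arg1 and Fn1 and holding 580 cells on day 7, had Bag3 at 20.2 CPM (17.3 to 23.5) and Hsph1 at 21.1 CPM (18.1 to 24.5).

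**Figure D3:**
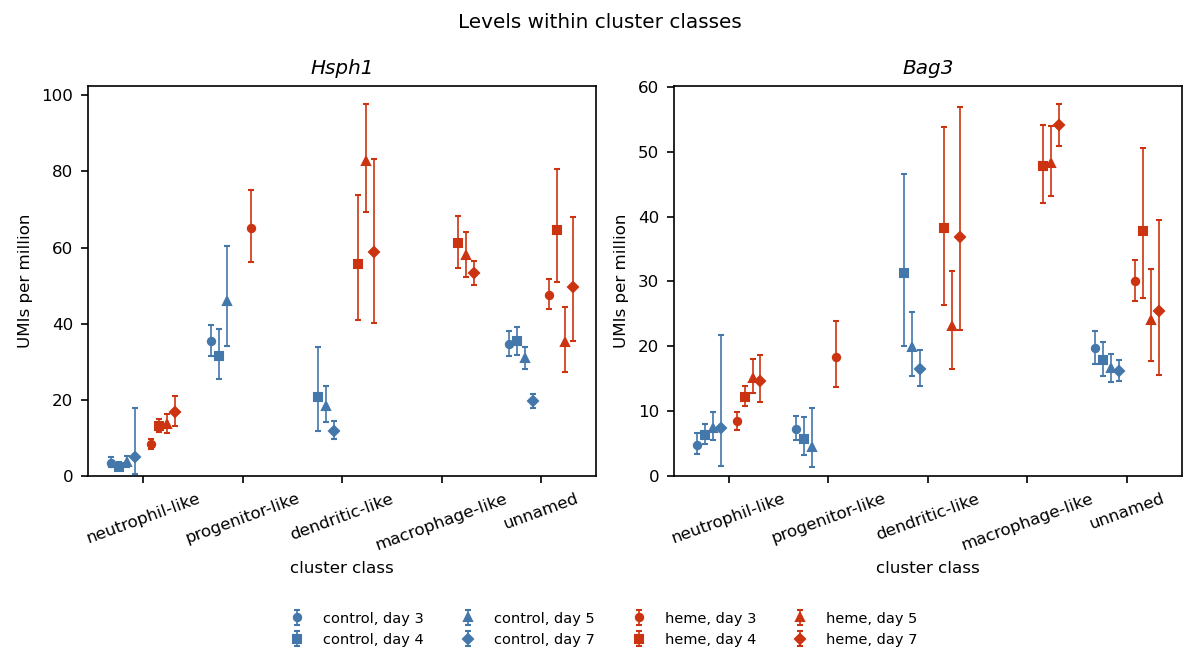
Levels of Hsph1 (left) and Bag3 (right) in CPM (y axes, from 0) within cluster classes (x axes), with control in blue, heme in red, and a marker shape per day. Bars are exact 95% intervals of counting error, and a class with fewer than 30 cells in a culture is not shown. Heme points of Hsph1 lie above control points in the neutrophil-like and dendritic-like classes, and at the clustering shown macrophage-like points exist for heme alone, although control cells took that name at both other settings tried.

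Within single clusters that held 30 or more cells of both libraries on the same day, Hsph1 and Bag3 were mostly higher in heme cells. The share of all genes higher within such clusters is not given, here or for clusters 10 and 3 below. Over whole cultures the median gene was itself higher in the heme library, at ratios of 1.24, 1.22, 1.19 and 1.22. A ratio above 1 within a cluster is thus not set apart from that of a typical gene. On day 4, 6 such clusters were on hand, with Hsph1 higher in heme cells in 6 and Bag3 in 5, of which the interval lay above 1 in 3 and 1. On day 7, 4 were on hand, with Hsph1 higher in 3 and Bag3 in 4, and the interval above 1 in 3 for each gene. On day 5, 6 were on hand, with both genes higher in 5, and the interval above 1 in 1 for Hsph1 and in 2 for Bag3. On day 3, before exposure, 6 were on hand, with Hsph1 higher in 4 and Bag3 in 6, and the interval above 1 in 3 and 2. No interval lay below 1 for either gene on days 3, 4, 5 or 7. On day 4, Hspd1, Hsp90aa1 and Hspa8 were each higher in heme cells in 5 of the 6 clusters, and Hspe1 in 4. Their intervals lay above 1 in 4, 4, 4 and 3 clusters and below 1 in 0, 0, 1 and 2, respectively. Over the whole culture of that day the ratios of these genes were below 1. Before exposure, on day 3, these 4 genes were higher in heme cells in 5, 4, 3 and 2 of 6 clusters. Their intervals then lay above 1 in 4, 3, 0 and 1 and below 1 in 0, 0, 0 and 2. On day 5 they were higher in 4, 3, 2 and 1 of 6 clusters, with intervals below 1 in 2, 1, 2 and 4. On day 7 they were higher in 3, 1, 1 and 1 of 4, with intervals below 1 in 0, 2, 2 and 2.

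Cluster 10, a dendritic cell-like cluster led by Ccl5, Ccr7 and Fscn1, held such cells on each day after exposure. Heme cells of days 4, 5 and 7 had Hsph1 there at 55.7, 83.9 and 58.9 CPM, over 50, 96 and 37 cells. In control cells of that cluster it was at 16.2, 18.4 and 13.3 CPM, over 41, 147 and 471 cells. The ratio was 3.43 (1.71 to 7.60), 4.56 (3.21 to 6.60) and 4.43 (2.84 to 6.78), so the intervals of the libraries stood clear of each other on all 3 days. Bag3 in cluster 10 had ratios of 1.39 (0.751 to 2.66), 1.38 (0.860 to 2.20) and 2.45 (1.43 to 4.02), the last of which lay above 1. Hspd1 was higher in heme cells of cluster 10 too, with ratios of 1.70 (1.20 to 2.43), 1.91 (1.56 to 2.34) and 1.94 (1.47 to 2.54). Hsp90aa1 had ratios of 1.35 (1.08 to 1.71), 1.91 (1.68 to 2.17) and 1.48 (1.23 to 1.77) in these cells. Hspe1, lower in the heme library as a whole, had ratios of 1.33 (1.12 to 1.59), 1.49 (1.37 to 1.63) and 1.12 (0.983 to 1.26) in cluster 10. Values of the other members in cluster 10 are not given. In the wider dendritic cell-like class, Hspa8 was at 1725, 1922 and 1241 CPM in heme cells and at 1356, 1456 and 1647 CPM in control cells. It was thus lower in heme cells there on day 7. Dnajb1 was at 17.4, 33.9 and 27.6 CPM beside 19.6, 22.6 and 24.0 CPM in that class, with overlapping intervals. Hmox1 in cluster 10 was at 221, 310 and 532 CPM in heme cells and at 4.87, 3.07 and 6.22 CPM in control cells, and day 3 could not serve as a background there because the cluster held under 30 cells of each library.

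Cluster 3, unnamed and led by Vcan and Ear2, held cells of both libraries on day 3 as well. Its Hsph1 ratio was 1.42 (1.18 to 1.70), 2.11 (1.45 to 3.04), 1.16 (0.784 to 1.71) and 1.83 (1.01 to 3.23). Its Bag3 ratio was 1.55 (1.20 to 2.00), 2.30 (1.34 to 3.83), 2.61 (1.38 to 5.02) and 3.05 (1.25 to 7.42) on those days. All of these intervals overlapped that of day 3, so a change from before to after exposure was not detectable at this depth in cluster 3. Hspe1 was lower in heme cells of cluster 3 on 2 of these days, with ratios of 0.896 (0.841 to 0.955) on day 3 and 0.388 (0.324 to 0.461) on day 5. Its ratios on days 4 and 7 in cluster 3 are not given. Hspe1 thus differed between clusters 3 and 10 in the direction of its ratio on day 5, since in cluster 10 it was above 1.

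**Figure D4:**
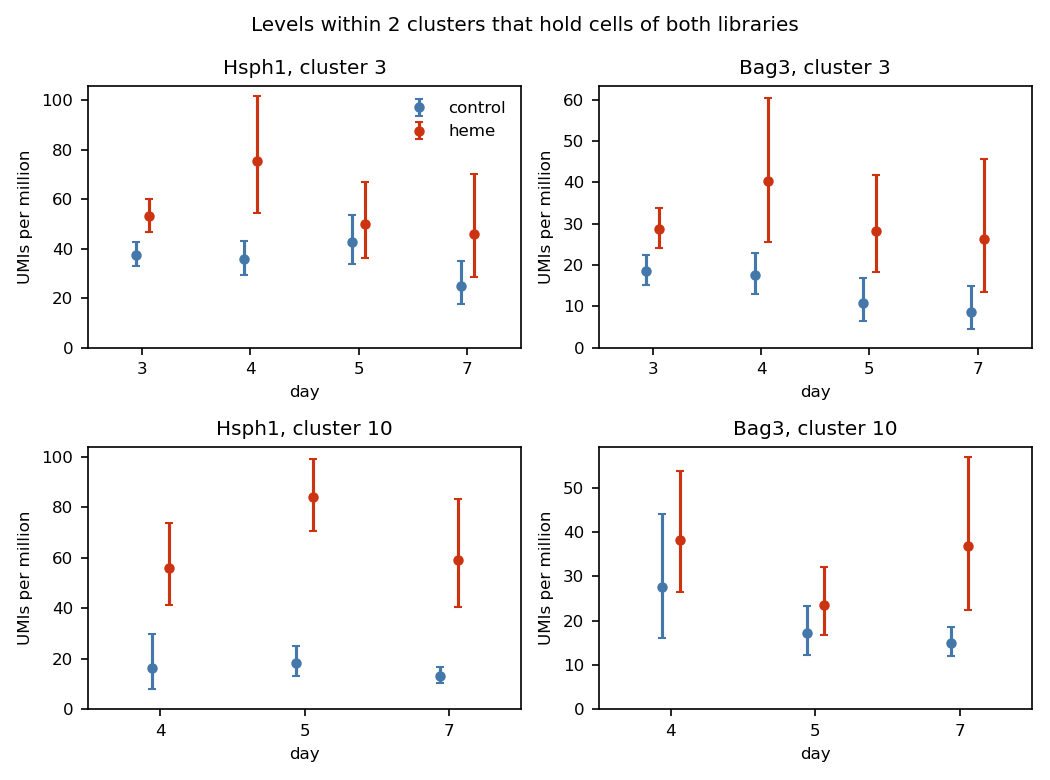
Levels of Hsph1 (left) and Bag3 (right) in CPM (y axes, from 0) by day (x axes) in clusters 3 (top) and 10 (bottom), control in blue and heme in red, with exact 95% intervals of counting error. In cluster 10 the heme points of Hsph1, from 55.7 to 83.9, lie clear of the control points, from 13.3 to 18.4.

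UMIs of both genes were spread over many cells. On day 7 at least 1 UMI of Hsph1 was found in 38.8% (36.7 to 41.0) of heme cells and in 18.4% (16.9 to 19.9) of control cells. For Bag3 these shares were 39.4% (37.2 to 41.5) and 17.3% (15.9 to 18.8). Thinned to 3000 UMIs per cell, which left out 112 heme and 173 control cells, the shares were 11.3 and 4.84% for Hsph1 and 12.2 and 4.45% for Bag3, in the same order. Of the neutrophil-like heme cells of day 7, 11.5% (8.98 to 14.5) had a UMI of Hsph1 and 10.6% (8.18 to 13.5) one of Bag3, at a median of 7078 UMIs per cell. Of the macrophage-like cells of that culture, 50.8% (48.1 to 53.5) and 53.4% (50.7 to 56.1) did, at a median of 16419 UMIs. No class that should lack these genes was at hand, so the share that free RNA would give was not measured for them. For Hmox1, erythroid-like cells of day 0 had 0 UMIs in the control library. Those of the heme library, also unexposed, had Hmox1 at 107 CPM (96.6 to 118). Cells of all days were pooled per treatment, and carry-over of RNA from exposed to unexposed cells was not tested.

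The partners of HSP70 had shares past 2-fold that were near those of all genes. Of 20 listed genes of this group, 19 had enough UMIs, and 1, 2 and 3 of them were higher by 2-fold on days 4, 5 and 7, beside 9.64, 9.27 and 14.9% of all genes, with 0 lower. Dnajb4, an HSP40, had 5.10, 4.99, 6.81 and 7.62 CPM in the control library and 6.91, 11.7, 14.8 and 27.2 CPM in the heme library. Its ratio was 1.35 on day 3 and 3.57 on day 7. Bag2, which restrains the ubiquitination of HSP70 clients, went from a ratio of 0.659 on day 3 to 2.56 on day 7. Dnajb2, an HSP40 that sorts clients for the proteasome, had its largest ratio on day 5, at 2.47, beside 1.67 on day 3.

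Sqstm1, the autophagy receptor p62 and a target of NRF2 as well as of HSF1, had the largest ratio of the list of small heat shock proteins and other HSF1 targets. The control library had it at 47.3, 77.4, 101 and 85.6 CPM, and the heme library at 72.4, 220, 240 and 328 CPM. The ratio of Sqstm1 was 1.53, 2.83, 2.38 and 3.83. It was the 1 gene of 11 in that list that was called higher on days 4, 5 and 7, beside 9.64, 9.27 and 14.9% of all genes. Hspb8, the partner of BAG3, had 8 UMIs on day 7 of the heme library and 0 in the control library, too few for a call. Ubb, a polyubiquitin gene, had ratios of 0.470, 0.448, 0.532 and 0.549, and so was lower before exposure as well. Cryab, a small heat shock protein, had a ratio of 0.469 on day 7, from 27 and 74 UMIs.

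Of 8 heat shock factors and regulators with enough UMIs, 1 was higher on day 5, beside 9.27% of all genes, and on day 7 1 was higher, beside 14.9%, and 1 lower, beside 7.67%. Hsf1, the main heat shock factor, had ratios of 1.04, 1.02, 1.20 and 1.45 and was not called. Hsf2 had a ratio of 2.02 on day 5 and 0.881 on day 7, after 1.40 on day 3. Vcp, the AAA ATPase that extracts ubiquitinated proteins, had ratios of 1.20, 1.24, 1.28 and 2.02. Hsf5 had a ratio of 0.400 on day 7, from 14 and 45 UMIs.

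For the lists that follow, 9.64, 9.27 and 14.9% of all genes were higher by 2-fold on days 4, 5 and 7, and 2.98, 3.75 and 7.67% lower. Of the 15 genes of the HSP90 list, 0 were higher on these days and 1 was lower on day 7. It was Sugt1, at a ratio of 0.480, after 0.805 on day 3. Of the 13 mitochondrial chaperones and proteases, 0 were called on these days, and their median log2 ratio was -0.04, -0.15, 0.12 and 0.35. Of the 13 subunits of the cytosolic chaperonin and prefoldin, 12, 12 and 10 had a log2 ratio below 0 on days 4, 5 and 7, as had 11 on day 3. The share of all genes below 0 is not given. On days 4, 5 and 7 the median log2 ratio was 0.28, 0.25 and 0.28 over all genes. It was -0.14, -0.14 and -0.11 in the shortest bin of transcript length. Pfdn5 alone was called, at 0.483 on day 7. Of the 15 chaperones of the endoplasmic reticulum, Dnajb9, induced by unfolded protein there, was called higher on day 7 at a ratio of 2.32, after 1.39 on day 3. Sdf2l1, a cochaperone of the same compartment, was called lower on days 3, 4, 5 and 7, at 0.444, 0.356, 0.329 and 0.460.

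Genes that handling of cells can raise were counted in the same way. Of 17 listed immediate early genes, the numbers higher by 2-fold were 4, 3, 0, 1 and 3 in the order of the 5 days, beside 20.7, 7.95, 9.64, 9.27 and 14.9% of all genes. Fos had 12.3, 33.1, 25.6 and 14.2 CPM in the control library and 19.7, 28.8, 29.0 and 61.7 CPM in the heme library. Socs3 had a ratio of 2.88 on day 7 and Atf3 of 2.02 on day 5. Fosb and Nr4a1 were lower on day 5, at 0.314 and 0.378, beside 3.75% of all genes lower that day. The summed level of Hspa1a and Hspa1b, which handling can also raise, did not exceed 2.23 CPM in any culture. The part of handling in the ratios of the members was not tested. Of 16 cell cycle genes, Tyms alone was called from day 3 on, at ratios of 0.487 on day 4 and 0.431 on day 5, after 0.694 on day 3. Of all genes, 2.98 and 3.75% were lower by 2-fold on days 4 and 5.

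Genes most like the chaperonin pair over the 10 cultures were sought among 4942 genes with at least 10 CPM in a culture and a standard deviation of at least 0.5 on the scale of log2(CPM + 1). For the sum of Hspd1 and Hspe1 they were Ndufaf4, Kti12, Wdr75, Gpatch4 and Rrp9, with Pearson's r from 0.992 to 0.996. For the sum of Hspa1a and Hspa1b they were Dusp18, Atp13a2, Fads1, Mlkl and Mfap3l, with r from 0.850 to 0.870, on sums of 60 UMIs or fewer. Searched in the same way after their values were seen, Bag3 was most like Twf1, Slc38a7, Npc1, Clec4a1 and Furin, with r from 0.981 to 0.989. The points share 2 libraries and their depth, and for the chaperonin pair day 0 is the highest value in each library. Npc1, for one, was at 28.6 and 39.1 CPM on days 3 and 7 of the control library and at 40.0 and 119 CPM in the heme library.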

How the data were processed

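The deposited matrices held raw UMI counts per gene and barcode, 1 matrix per library. The authors' notes name Cell Ranger 4.0.0 and build GRCm38.p6, the matrix header names 5.0.0, and the authors' hashtag calls gave day and singlet status. Singlets with 500 to 5000 genes, at most 15% mitochondrial and at most 30% ribosomal protein UMIs were kept. No further doublet caller was run. Counts were summed per library and day, divided by the culture's total, and compared as ratios with exact Poisson intervals. Ratios with the day 3 ratio divided out have approximate intervals instead, symmetric on the log2 scale. Shares have exact Clopper-Pearson intervals. All intervals cover counting error only. Ratios and calls were checked on simulated counts. Cells of both libraries were clustered outside the listed genes (2000 variable genes from scanpy 1.11.5, 15 components, 15 neighbours, Leiden resolution 1). A resolution of 0.5 and 30 components were tried as alternatives. A cluster took a name from at least 3 raised markers. TMM (edgeR 4.0.16) and DESeq2 1.42.0 factors served as alternative scalings. Gene positions and lengths came from GENCODE M21. The members and lists were chosen with earlier results of these data known. Beside the members, a gene of another list is named if past 2-fold on day 4, 5 or 7, at most 3 per list and direction. Hsf1, Hspb8 and the genes most like Bag3 fall outside this rule and were chosen after their values were seen. The genes most like Hsph1 are not reported here.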

Additional observations from a re-analysis of the deposited data

Results flagged for a closer look

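Hspd1 went opposite ways on different days after exposure: its heme to control ratio was 0.657 on day 4 and 0.906 on day 5, both with intervals below 1, and 1.40 on day 7, with an interval above 1. On day 5 Hspd1 was above 1 under some alternatives, with a log2 ratio of 0.16 once the day 3 ratio was divided out. Hsp90aa1 had 0.852 on day 4, 0.890 on day 5 and 1.03 on day 7, but its day 7 direction did not hold: the log2 ratio of 0.041 became -0.19 with TMM factors, -0.22 with DESeq2 factors and -0.28 relative to genes of like length. Within the 6 clusters of day 4 held by both libraries, Hspd1 and Hsp90aa1 were each higher in heme cells in 5. Before exposure, on day 3, they were higher in 5 and 4 of 6 such clusters, and on day 7 in 3 and 1 of 4. The difference between days was not tested, since each day is 1 culture per library. The macrophage-like share of the heme library moved alongside, from 12.5% on day 4 to 65.0% on day 7, and its part in the result was not tested.

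Bag3 was also higher in heme in barcodes that the comparisons leave out, but not alone. In barcodes called Negative, to which no day was assigned, the heme to control ratio of Bag3 was 2.22 (1.28 to 4.15), from 86 and 15 UMIs, which is between its ratios of days 5 and 7. Hsph1 was at 1.52 (1.33 to 1.74) there, Hspd1 at 1.55 (1.46 to 1.65), Hsp90aa1 at 1.22 (1.18 to 1.26) and Hspa8 at 1.13 (1.09 to 1.17). Dnajb1 and Hspe1 were below 1, at 0.792 (0.677 to 0.929) and 0.867 (0.816 to 0.921).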

How the results depend on the processing

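No paired analysis was possible because each group is 1 library and no result comes from a test. The members higher by 2-fold on day 7 numbered 2 to 4 under every alternative, and the ratios of Hsph1 and Bag3 kept their direction on day 7 throughout. The genes past 2-fold were not the same throughout. With the day 3 ratio divided out, the log2 ratio on day 7 was 1.28 for Hsph1, 0.92 for Bag3 and 0.85 for Hspa1b. That of Hspa1a was 1.43 (-0.70 to 3.56), from a smallest count of 4 UMIs. The median log2 ratio of the members moved past its interval as follows. Without any filter on singlets it was 0.25 on day 3, 0.042 on day 5 and 0.60 on day 7, and without the upper limit of genes 0.25, 0.043 and 0.57. With a mitochondrial limit of 5% it was -0.30 on day 4, -0.21 on day 5 and 0.32 on day 7. With TMM factors it was -0.22, -0.30, -0.36 and 0.25 on days 3, 4, 5 and 7, and with DESeq2 factors -0.27, -0.34, -0.36 and 0.22. Without mitochondrial and ribosomal protein genes in the total it was -0.19 on day 5 and 0.38 on day 7, with each cell weighted equally -0.047 on day 5, and with the day 3 ratio divided out 0.063 on day 5 and 0.78 on day 7. At a fold of 1.5, the members higher numbered 1, 1 and 2 on days 3, 4 and 5 and those lower 1, 2, 1 and 1 on days 3, 4, 5 and 7. Without any filter, and likewise without the upper limit of genes, 1 was higher and 0 were lower on day 4 and 2 were higher on day 5. With each cell weighted equally or the day 3 ratio divided out, 0 were lower on day 4, and with the mitochondrial limit of 5% 1 was lower on day 5. Apart from the limit of 200 UMIs below, the shares of all genes under these alternatives are not given. These counts of members are thus not set apart from them. Thinning cells to 3000 UMIs moved the day 7 shares of cells with a UMI to 4.84% (control) and 11.3% (heme) for Hsph1 and 4.45% and 12.2% for Bag3. At the other 2 clustering settings, 29.7 and 25.6% of control cells of day 7 were named macrophage-like. The cause of these moves was not tested, beyond the construction of each setting. Among genes with 200 or more UMIs, 12.2% were higher by 2-fold on day 7. Ratios relative to genes of like length, and without barcodes found in both libraries, and ratios within clusters held by both libraries were added after seeing the data. Depth limits Hspa1a and Hspa1b, with at most 21 and 39 UMIs in a culture.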
